A study of Mus musculus with 12 samples.

Results

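Cultures of Ifnb-/- cerebellar granule neurons (CGNs) that had received recombinant IFN-β (rIFN-β) were set against untreated Ifnb+/+ CGNs, to see how near the cytokine brought knockout cultures to the wild-type profile and where it carried them past it. Both groups were chosen by their sample labels and hold 6 of the 12 arrays of the series, 3 of Ifnb-/- with rIFN-β and 3 of untreated Ifnb+/+. The arrays are Affymetrix Mouse Genome 430 2.0 chips. Of 45037 probe sets, 34945 name 1 gene, and each of 18193 genes was read from the probe set of that kind with the highest mean over all 12 arrays. All values are log2 intensities after robust multi-array averaging (RMA), on which a difference of 1 is a doubling. CGNs are the small glutamatergic neurons of the cerebellar cortex. Every culture came from pups of the B10.RIII strain, which the labels give as 7 days old, and was 3 days in culture. The Ifnb-/- mice lack the gene in all cells, and the treated wells had 100 U/ml rIFN-β for 24 hr. The labels give the controls as Ifnb+/+, while the methods also count Ifnb+/- littermates as wild type. The remaining 6 arrays, 3 of untreated Ifnb-/- and 3 of Ifnb+/+ with rIFN-β, are given beside the comparison where they place it. Cultures were made in triplicate, and no source used here says whether they came from separate litters, so that p-values measure only how far these wells differed, which may be technical.

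Type I interferons bind a receptor made of Ifnar1 and Ifnar2, whose kinases activate STAT proteins. Together with Irf9 these form a complex that binds interferon-stimulated response elements and turns on antiviral effectors, interferon-induced GTPases, antigen presentation and chemokines, while Usp18 and Socs1 damp the receptor's signal. In the brain, neurons and glia both respond to the cytokine, and low steady signaling keeps some of these genes on at rest.

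The deleted gene itself could not serve as a check of the labels. Ifnb1 read 2.60, 2.77 and 2.79 in untreated Ifnb+/+ and 2.98, 3.06 and 2.80 in Ifnb-/- with rIFN-β, all under the lower quartile of gene means, 3.12. The granule neuron transcription factor Zic1 read 12.18 to 12.58 in untreated Ifnb+/+ and 12.49 to 12.66 in Ifnb-/- with rIFN-β, and Neurod1, another, read 11.32 to 11.98 and 11.65 to 12.15. Markers of other cells were also present, with Mbp of oligodendrocytes at 9.87 to 10.53, Slc32a1 of inhibitory neurons at 7.08 to 8.42 and Csf1r of microglia at 7.24 to 8.48 over the 6 arrays. Ifnb-/- with rIFN-β replicate 2 stood apart from its group. Its profile correlated across genes at 0.987 and 0.985 with replicates 1 and 3, which correlated at 0.997 with each other. The median of its 17 astrocyte markers lay 0.69 above their mean over the 12 arrays, against -0.32 and -0.22 in replicates 1 and 3, and the median of its 36 cell cycle genes lay at 0.63, against -0.20 and -0.15. Untreated Ifnb+/+ replicates 1 and 2 correlated at 0.971, against 0.988 and 0.993 for the other pairs of that group. The median SD of a gene was 0.201 in untreated Ifnb+/+ and 0.154 in Ifnb-/- with rIFN-β.

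Ifnb-/- CGNs with rIFN-β differed from untreated Ifnb+/+ CGNs in 339 genes (limma, Benjamini-Hochberg adjusted p under 0.05), 1.86% of those tested, with 140 genes higher (0.77%) and 199 lower (1.09%). The 3 and 3 arrays did not overlap in any of these genes, and they did not overlap in 8.64% (higher) and 8.5% (lower) of all genes. The higher genes differed by more: 93 were over 2-fold and 25 over 8-fold, while 66 lower genes were over 2-fold and 0 over 8-fold. The median log2 difference was 1.40 among the higher genes and -0.83 among the lower genes. The interferon lists hold 156 of the 18193 genes. Their genes made up 46 of the 140 higher genes, 22 of the 25 over 8-fold and 5 of the 199 lower genes. The lists do not hold every interferon-induced gene, so these counts are of list members only. Before adjustment, 1291 genes (7.1%) reached p under 0.05 in the higher direction and 1491 (8.2%) in the lower. The counts depended on single arrays: 543 genes were higher and 576 lower without untreated Ifnb+/+ replicate 2, and 64 and 65 without its replicate 3. Without Ifnb-/- with rIFN-β replicate 1 they were 78 and 74, without its replicate 2 they were 113 and 147 and without its replicate 3 they were 92 and 135. Without untreated Ifnb-/- replicates 1, 2 and 3, which share the estimate of spread, 93, 95 and 95 genes were higher and 122, 123 and 118 lower. Without Ifnb+/+ with rIFN-β replicate 1, 223 were higher and 255 lower. Without its replicate 2 they were 132 and 190, and without its replicate 3 they were 173 and 235. Without untreated Ifnb+/+ replicate 1, 140 were higher and 262 lower. List counts with an array left out, given below, are to be read beside these totals over all genes.

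Across whole profiles of all genes, correlation and the median absolute difference ranked the treated and untreated knockout differently. The correlation across all genes between an array of Ifnb-/- with rIFN-β and an array of untreated Ifnb+/+ had a median of 0.980 over 9 pairs (0.960 to 0.989). For untreated Ifnb-/- against the same Ifnb+/+ arrays it was 0.991 (0.968 to 0.995), and among the untreated Ifnb+/+ arrays it was 0.988 over 3 pairs (0.971 to 0.993). Without the 156 genes of the interferon lists the medians were 0.984 and 0.992. Correlations of single arrays also carry the spread within a group. Untreated Ifnb-/- arrays correlated with each other at 0.997 to 0.998 and those of Ifnb-/- with rIFN-β at 0.985 to 0.997. Between group means, the correlation with untreated Ifnb+/+ was 0.9887 with rIFN-β and 0.9914 without it. Outside the interferon lists these were 0.9918 and 0.9915, so that the order was not kept. The typical gene lay nearer to wild type with rIFN-β than without it. The median absolute difference of group means from untreated Ifnb+/+ was 0.147 for Ifnb-/- with rIFN-β and 0.193 for untreated Ifnb-/-. With each array centred on its own median these became 0.150 and 0.164. The SD of the difference across all genes gave the other order, 0.359 with rIFN-β and 0.318 without it. Outside the interferon lists that SD was 0.306 and 0.317. These are descriptions across genes, which are not independent replicates, and all use the same 3 Ifnb+/+ arrays.

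Of 48 measured antiviral interferon-stimulated genes 20 were higher (41.7%, against 0.77% of all genes) and 1 was lower in Ifnb-/- with rIFN-β than in untreated Ifnb+/+, with a median difference of 1.29 against -0.01 over all genes. Cxcl10, a chemokine that draws T cells, had the largest difference of all genes. It read 4.11, 4.59 and 4.33 in untreated Ifnb+/+ and 10.90, 11.80 and 10.89 in Ifnb-/- with rIFN-β. The difference was 6.85 ± 0.29 (SE, n = 3 and 3), 115-fold, with an adjusted p of 3.9e-07. In untreated Ifnb-/- it read 3.96, 3.81 and 3.71, so that treated arrays were high and apart and the untreated knockout lay under the wild type. Ifit1, which binds viral RNA that lacks a proper cap, read 4.06, 3.68 and 3.66 in untreated Ifnb+/+ and 9.36, 10.26 and 9.53 in Ifnb-/- with rIFN-β (difference 5.92 ± 0.34, adjusted p = 6.5e-06). In untreated Ifnb-/- it read 2.65, 2.69 and 2.92. Rsad2, the antiviral enzyme viperin, differed by 5.47 ± 0.36 and Usp18, the protease that removes ISG15 from proteins, by 5.11 ± 0.34. Ifit3 (4.86) and Ifit2 (4.81), relatives of Ifit1, and Cmpk2 (4.52), a mitochondrial nucleotide kinase, followed. The median difference of the antiviral list was -0.36 for untreated Ifnb-/- and 2.49 for Ifnb+/+ with rIFN-β, both against the same untreated Ifnb+/+ arrays. The count of 20 was 12 without untreated Ifnb+/+ replicate 3, and 13 without replicate 1 and also without replicate 2 of Ifnb-/- with rIFN-β. Relative to the mean of the 12 arrays, the median over the list was 0.15, 0.92 and 0.19 in replicates 1, 2 and 3 of Ifnb-/- with rIFN-β and -0.92 to -0.80 in untreated Ifnb+/+. Replicate 2, which stood apart from its group, was the highest, and without it the median difference was 0.91. RMA gives no detection call, and several of these genes had low values in untreated Ifnb+/+, where array background shortens a fold change.

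The interferon-induced GTPases, which attack the vacuoles of intracellular pathogens, had the highest median of any list. Of 10 measured members 9 were higher (90%, against 0.77% of all genes), and the median difference was 4.33. Iigp1 read 3.22, 3.38 and 3.05 in untreated Ifnb+/+ and 9.24, 10.81 and 9.03 in Ifnb-/- with rIFN-β, a difference of 6.48 ± 0.48 (adjusted p = 2.4e-05). Igtp read 4.84, 4.25 and 4.61 against 9.04, 10.32 and 9.01, a difference of 4.89 ± 0.40 (adjusted p = 5.5e-05). Replicate 2 was the highest treated array in both. Irgm1 differed by 4.56 ± 0.34 and Gbp2, a guanylate-binding protein, by 4.39 ± 0.47. The count stayed between 8 and 10 with each of the 12 arrays left out in turn. The 3 genes over 8-fold that stood outside the interferon lists are named here after their values were seen. They were Gm4951 (3.73), Mmp13 (3.12), a collagenase, and Tent5a (3.10), a noncanonical poly(A) polymerase. In the same order, Ifnb+/+ with rIFN-β differed from untreated Ifnb+/+ by 5.15, 3.23 and 4.31. A place outside the lists does not mean that a gene is not interferon-induced.

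Sequence around the start site was examined for the interferon-stimulated response element, searched as GAAA followed by any 2 bases and GAAA again, or as TTTC, any 2 bases and TTTC for the other strand, a pattern that sites for interferon regulatory factors also match. It lay within 250 bases before to 50 after the start of 24 of the 113 higher genes with a RefSeq promoter (21.2%), of 8 of 158 lower genes (5.06%) and of 523 of all 14368 measured genes with one (3.64%). Among the higher genes of the interferon lists 15 of 33 carried it (45.5%). Of the 12 genes with the largest higher difference 9 had a RefSeq promoter and 7 of these carried it. The stretches of those 7 are printed, since they belong to the genes that differed most, with the element in capitals. They are from RefSeq on GRCm38.p6, 5′ to 3′ on the strand of the gene.
Ifit1: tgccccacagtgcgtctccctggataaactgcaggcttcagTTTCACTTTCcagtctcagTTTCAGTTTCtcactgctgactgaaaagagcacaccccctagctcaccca
Ifit3: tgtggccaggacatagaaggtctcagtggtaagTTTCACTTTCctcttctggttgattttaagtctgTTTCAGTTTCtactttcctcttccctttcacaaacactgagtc
Cxcl10: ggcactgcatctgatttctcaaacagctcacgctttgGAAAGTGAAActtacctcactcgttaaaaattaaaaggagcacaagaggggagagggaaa
Rsad2: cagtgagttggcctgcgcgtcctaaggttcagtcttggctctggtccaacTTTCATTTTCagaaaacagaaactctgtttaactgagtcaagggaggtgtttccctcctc
Igtp: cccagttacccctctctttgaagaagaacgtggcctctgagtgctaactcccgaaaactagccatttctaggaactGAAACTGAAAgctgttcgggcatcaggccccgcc
Irgm1: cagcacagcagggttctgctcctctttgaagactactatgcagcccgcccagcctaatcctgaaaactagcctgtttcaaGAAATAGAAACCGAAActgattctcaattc
Gbp2: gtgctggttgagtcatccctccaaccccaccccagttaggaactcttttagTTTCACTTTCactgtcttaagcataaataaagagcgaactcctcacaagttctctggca

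The stretch of Ifit1 is chr19:34640744-34640853 on the plus strand, with matches that begin 104 and 85 bases before the start site, and that of Ifit3 is chr19:34583340-34583449, plus strand, with matches 156 and 122 bases before it. Cxcl10 is at chr5:92349043-92349139 on the minus strand with a match 213 bases before the start, and Rsad2 at chr12:26456513-26456622, minus strand, with a match 120 bases before it. Igtp is at chr11:58199446-58199555, plus strand, with a match 34 bases before it. Irgm1 is at chr11:48871421-48871530, minus strand, where matches at 30 and 24 bases before the start overlap. Gbp2 is at chr3:142620553-142620662, plus strand, with a match 59 bases before the start. All of these stretches lie upstream of the start site, and a match describes the letters in the window only.

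**Figure D1:**
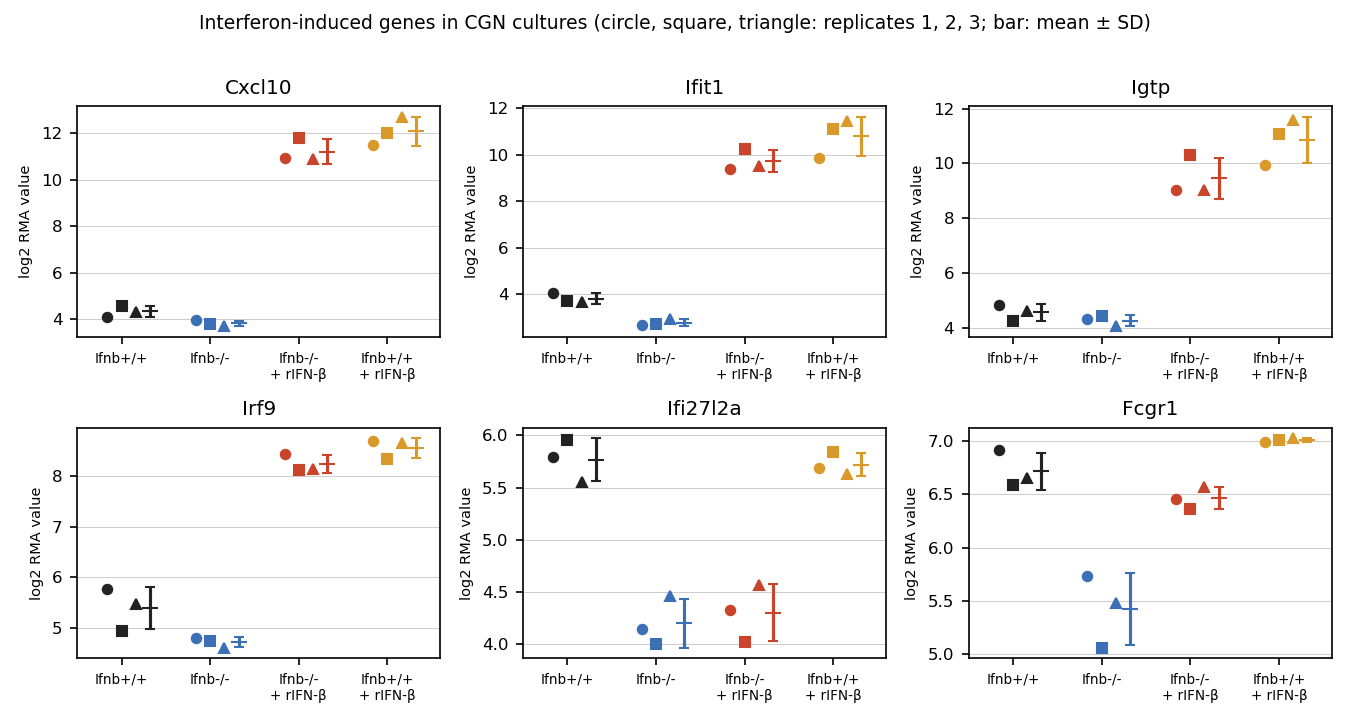
Log2 RMA values (vertical axis) of 6 genes in the 4 groups of 3 CGN cultures (circle, square and triangle for replicates 1, 2 and 3, bar for the mean ± SD). Cxcl10, Ifit1, Igtp and Irf9 lie above untreated Ifnb+/+ in both treated groups, Ifi27l2a has a mean of 4.30 in Ifnb-/- with rIFN-β against 5.77 in untreated Ifnb+/+, and Fcgr1 6.46 against 6.72.

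Of 25 measured genes of the receptor and its signaling 5 were higher (20%, against 0.77% of all genes) and 0 lower, with a median of 0.28. Irf9, the DNA-binding part of the STAT complex, read 5.77, 4.94 and 5.47 in untreated Ifnb+/+ and 8.44, 8.13 and 8.14 in Ifnb-/- with rIFN-β (2.84 ± 0.19, adjusted p = 1.1e-05). Irf1, an interferon-induced transcription factor, differed by 2.44 ± 0.22, and the feedback inhibitor Socs1 by 1.89 ± 0.21. The receptor genes were not called: Ifnar1 differed by -0.27 (95% interval -0.51 to -0.04, adjusted p = 0.255) and Ifnar2 by -0.06 (-0.28 to 0.16). The count of higher genes was 9 without Ifnb+/+ with rIFN-β replicate 1. Of 5 interferon-induced PARP genes 3 were higher (60%): Parp9 (2.98 ± 0.44) and Dtx3l (2.96 ± 0.29), partners in a ubiquitin ligase complex, and Parp14 (3.30 ± 0.56), another ADP-ribosyltransferase. The call of Parp14 was lost without untreated Ifnb+/+ replicate 3 (adjusted p up to 0.0514).

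The median difference over 19 measured genes of MHC class I presentation and the immunoproteasome was 0.13, where untreated Ifnb-/- gave -0.49 and Ifnb+/+ with rIFN-β 0.99. The 2 called members (10.5%, against 0.77% of all genes) were Tap1, a subunit of the peptide pump, and Nlrc5, the activator of MHC class I transcription, both higher. Tap1 read 5.35, 4.24 and 4.90 in untreated Ifnb+/+ against 6.42, 7.26 and 6.44 (1.87 ± 0.36, adjusted p = 0.0203), and its 3 other probe sets differed by -0.06 to 0.09. The call of Tap1 was lost when untreated Ifnb+/+ replicate 3 and Ifnb-/- with rIFN-β replicates 1 and 2 were left out in turn (adjusted p up to 0.0802). Nlrc5 differed by 2.88 ± 0.66 (adjusted p = 0.0491), and its call held only when untreated Ifnb+/+ replicate 2 and Ifnb+/+ with rIFN-β replicates 1 and 3 were left out in turn and was lost without each of the other 9 arrays (adjusted p up to 0.167). The immunoproteasome subunit Psmb9 differed by 1.67 (adjusted p = 0.0761), which is not a call.

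Chemokines split in direction. Of 23 measured genes 4 were higher (17.4%, against 0.77% of all genes) and 3 lower (13%, against 1.09%). Their median was -0.07, and it was 0.12 without untreated Ifnb+/+ replicate 1. Ccl12, a monocyte attractant, read 3.17, 3.81 and 3.91 in untreated Ifnb+/+ and 5.72, 6.51 and 6.04 in Ifnb-/- with rIFN-β (2.46 ± 0.30, adjusted p = 0.00131). Its relatives Ccl2 (1.31 ± 0.26) and Ccl7 (1.28 ± 0.24) were higher too. The neutrophil attractant Cxcl2 had the largest lower difference of all called genes. It read 5.33, 6.20 and 5.54 in untreated Ifnb+/+, 5.80, 5.48 and 5.65 in untreated Ifnb-/- and 3.09, 3.64 and 3.57 in Ifnb-/- with rIFN-β, and the difference from wild type was -2.25 ± 0.32 (adjusted p = 0.00345). Treated knockout arrays lay under every untreated array of both genotypes. Its relative Cxcl3 differed by -1.01 ± 0.15. Ccl5, which attracts T cells and monocytes, read 6.04, 6.39 and 6.09 in untreated Ifnb+/+ against 5.18, 4.49 and 5.58 (-1.09 ± 0.22, adjusted p = 0.0241), while Ifnb+/+ with rIFN-β gave 6.66, 6.77 and 6.57. Unlike Cxcl2, Ccl5 was about as low in untreated Ifnb-/-, with a mean of 5.06, and treated and untreated Ifnb-/- differed by 0.03. The difference of Ccl5 between the treated genotypes was -1.58 (adjusted p = 0.0226). The call of Ccl5 against untreated Ifnb+/+ was lost when untreated Ifnb+/+ replicate 3 and Ifnb-/- with rIFN-β replicate 1 were left out in turn (adjusted p up to 0.0850). The call of Ccl7 was lost when untreated Ifnb+/+ replicate 3 and Ifnb-/- with rIFN-β replicates 1 and 3 were left out in turn (adjusted p up to 0.113), and that of Ccl2 held only when untreated Ifnb+/+ replicate 2 and Ifnb+/+ with rIFN-β replicates 1, 2 and 3 were left out in turn and was lost without each of the other 8 arrays (adjusted p up to 0.124). The count of higher chemokines was 2 without untreated Ifnb+/+ replicate 3 and without replicate 1 or 3 of Ifnb-/- with rIFN-β, and that of lower ones was 5 without untreated Ifnb+/+ replicate 1.

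Among 26 cytokine and co-signal genes 3 were higher (11.5%, against 0.77% of all genes) and 1 lower (3.85%, against 1.09%). Cd274, which encodes PD-L1, differed by 2.27 ± 0.36, Cd69, an early activation marker of lymphocytes, by 1.24 ± 0.21 and Csf1, the growth factor of microglia, by 1.15 ± 0.22. The lower gene was Tgfb1 (-0.78 ± 0.16), an anti-inflammatory cytokine, of which another probe set differed by 0.26. Untreated Ifnb-/- differed from untreated Ifnb+/+ by -0.75 in Tgfb1, and treated from untreated Ifnb-/- by -0.02. The count of higher genes was 1 without untreated Ifnb+/+ replicate 3, and 5 and 6 without replicates 1 and 3 of Ifnb+/+ with rIFN-β. The call of Cd69 was lost when untreated Ifnb+/+ replicate 3 and Ifnb-/- with rIFN-β replicate 1 were left out in turn (adjusted p up to 0.0694). The call of Csf1 was lost when untreated Ifnb+/+ replicate 3 and Ifnb-/- with rIFN-β replicates 2 and 3 were left out in turn (adjusted p up to 0.0866), and its 3 other probe sets differed by -0.14 to 1.07. That of Tgfb1 held only when untreated Ifnb+/+ replicate 2, Ifnb-/- with rIFN-β replicate 3, Ifnb+/+ with rIFN-β replicates 1, 2 and 3 were left out in turn and was lost without each of the other 7 arrays (adjusted p up to 0.120).

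Against Ifnb+/+ cultures that had the same dose, the medians of the interferon lists were lower in treated Ifnb-/- cultures, and few of these differences passed the test. Between the treated genotypes 1 gene was higher (0.0055%) and 10 were lower (0.055%) in Ifnb-/-, together 0.0605% of genes, while 342 (1.88%) and 557 (3.06%) reached an unadjusted p under 0.05. The median difference was -1.25 over the antiviral list, -1.42 over the GTPases and -1.66 over the PARP genes, against 0.03 over all genes. Single arrays of the treated genotypes overlapped in these lists. Relative to the mean of the 12 arrays, the antiviral medians of replicates 1, 2 and 3 were 0.72, 1.88 and 2.70 in Ifnb+/+ and 0.15, 0.92 and 0.19 in Ifnb-/-. For the GTPases they were 2.03, 3.36 and 4.10 against 1.36, 2.85 and 1.20. The PARP genes gave 1.36, 3.15 and 3.73 against 0.73, 1.40 and 0.58. Cxcl10 read 11.48, 12.01 and 12.70 in Ifnb+/+ with rIFN-β, and the difference of -0.87 was not called (adjusted p = 0.668), with overlapping arrays. Dtx3l read 9.12, 10.17 and 10.47 in Ifnb+/+ with rIFN-β and 7.47, 8.14 and 7.48 in Ifnb-/- with rIFN-β, a difference of -2.22 that passed (adjusted p = 0.0221), as did that of Cd69, -1.66 (adjusted p = 0.0221).

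Ifi27l2a, an interferon-induced gene, went the other way. It read 5.79, 5.96 and 5.55 in untreated Ifnb+/+ and 4.32, 4.02 and 4.56 in Ifnb-/- with rIFN-β, with no overlap, and the difference was -1.47 ± 0.17 (adjusted p = 0.000785). Untreated Ifnb-/- gave 4.14, 4.00 and 4.46, a difference of 0.10 between treated and untreated Ifnb-/- (adjusted p = 0.799), and Ifnb+/+ with rIFN-β gave 5.69, 5.84 and 5.63. The treated genotypes differed by -1.42 (adjusted p = 0.0221). The call against untreated Ifnb+/+ held with each of the 12 arrays left out (adjusted p up to 0.00610).

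Ifi27l2a was among 21 genes (0.115%) called between the untreated genotypes. Their differences without and with rIFN-β are given side by side, and both use the same 3 Ifnb+/+ arrays. Fcgr1, the high-affinity IgG receptor, read 6.92, 6.59 and 6.65 in untreated Ifnb+/+, 5.73, 5.06 and 5.48 in untreated Ifnb-/- and 6.46, 6.36 and 6.57 in Ifnb-/- with rIFN-β. Its difference from wild type was -1.30 (95% interval -1.64 to -0.96) without rIFN-β and -0.26 (-0.60 to 0.08, adjusted p = 0.478) with it. rIFN-β raised it in Ifnb-/- by 1.04 (adjusted p = 0.00606), in a comparison that called 1.67% of genes, and a further probe set of Fcgr1 differed by 0.41 from wild type with rIFN-β. Hk3, a hexokinase, differed by -0.75 (-1.01 to -0.48) without and -0.32 (-0.59 to -0.05) with rIFN-β, and Car10, a carbonic anhydrase relative, by 1.02 (0.66 to 1.39) and 0.45 (0.08 to 0.82). Synpr, a synaptic vesicle protein, differed by 0.89 and 0.43 (0.17 to 0.70), Ptpn22, a phosphatase of immune cells, by 0.75 and 0.34 (0.07 to 0.60), and Cacna1c, a calcium channel subunit, by 0.98 and 0.68 (0.33 to 1.03). These 5 were not called against wild type with rIFN-β, and their differences between treated and untreated Ifnb-/- did not pass the test either, with adjusted p from 0.0910 for Synpr to 0.410 for Cacna1c. Car10 was called without untreated Ifnb+/+ replicate 2.

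Other genes of this set were called in both comparisons. Pcp4, a calmodulin-binding peptide of neurons, read 9.94, 10.04 and 9.89 in untreated Ifnb+/+, 10.80, 10.75 and 10.84 in untreated Ifnb-/- and 10.92, 10.78 and 10.84 in Ifnb-/- with rIFN-β, a difference of 0.89 (0.66 to 1.12) from wild type. Both knockout groups lay above every untreated Ifnb+/+ array. Plin2, which coats lipid droplets, differed by -0.94 without and -1.01 (-1.28 to -0.74) with rIFN-β, and Rgma, a repulsive guidance molecule, by -1.06 and -1.01 (-1.36 to -0.67). Adam8, a cell surface protease, differed by -1.07 and -1.36 (-1.66 to -1.06), and Cd37, a leukocyte tetraspanin, by -0.72 and -0.81 (-1.05 to -0.57). The 95% interval of Slc37a2, a sugar phosphate transporter, was -1.27 to -0.74 without rIFN-β and -1.18 to -0.65 with it, around -0.91. A further probe set of Cd37 differed by 0.04. Rnh1, the ribonuclease inhibitor, differed by -0.84 and -0.73 (-1.01 to -0.45), and its call with rIFN-β was lost when untreated Ifnb+/+ replicate 3 and Ifnb-/- with rIFN-β replicate 1 were left out in turn (adjusted p up to 0.0638). Snapc3 (0.99), Tmem69 (-0.90), Patj (-0.87) and Ndufs5 (-0.63), a complex I subunit, lie, like Plin2 and Ifnb1, on chromosome 4. Of the 1087 measured genes on that chromosome 2.3% were called with rIFN-β, near the 1.86% of all genes. Whether position near Ifnb1 plays a part was not tested. The other probe sets of Snapc3 differed by -1.20 to 0.68 and those of Patj by -1.10 to 0.05. Ndufs5 read 9.08, 9.24 and 9.12 in untreated Ifnb+/+ against 8.54, 8.30 and 8.72 and was lower than in Ifnb+/+ with rIFN-β as well (-0.88, adjusted p = 0.0449). Its call against untreated Ifnb+/+ held only when untreated Ifnb+/+ replicates 1 and 2, Ifnb-/- with rIFN-β replicate 3, Ifnb+/+ with rIFN-β replicates 1, 2 and 3 were left out in turn and was lost without each of the other 6 arrays (adjusted p up to 0.130).

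**Figure D2:**
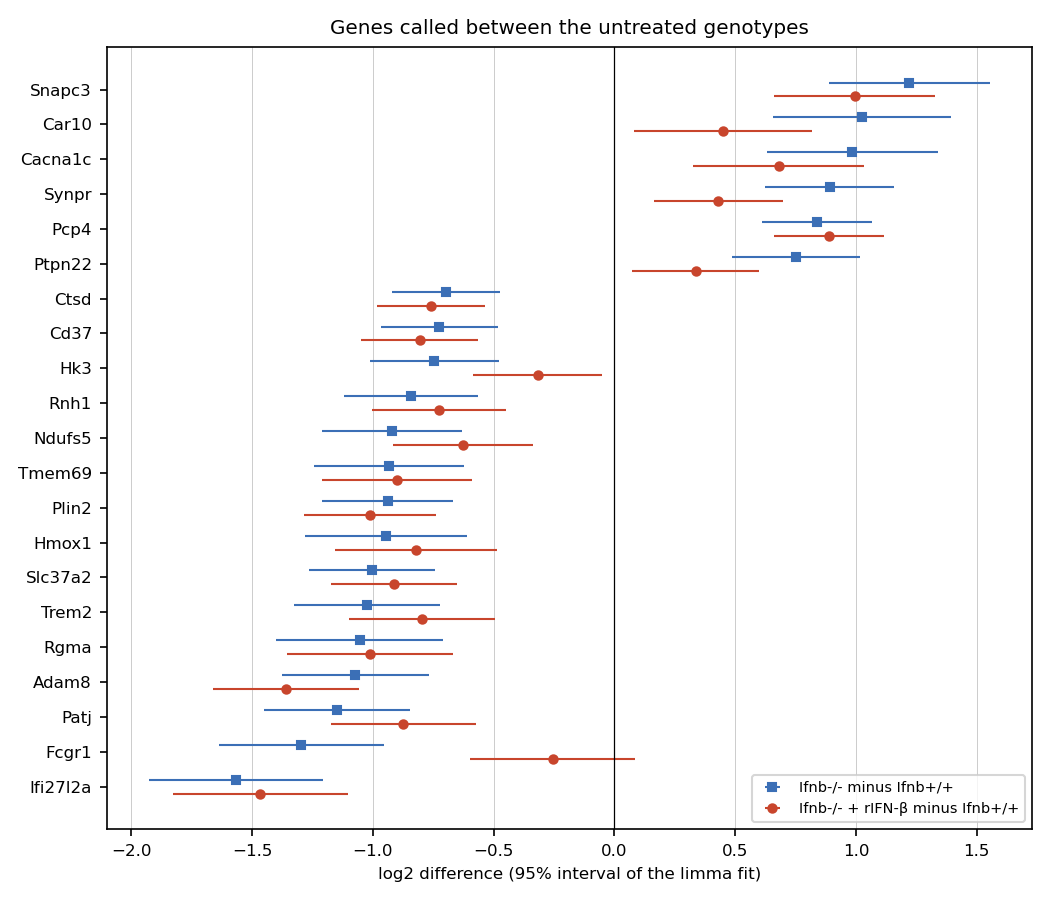
Log2 differences from untreated Ifnb+/+ (horizontal axis, with 95% intervals of the limma fit, 3 arrays a group) of the 21 genes called between the untreated genotypes, without rIFN-β (squares) and with it (circles). Fcgr1 lies at -1.30 and -0.26, Ifi27l2a at -1.57 and -1.47, and Pcp4 at 0.84 and 0.89.

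Of 27 measured microglial markers 6 were lower (22.2%, against 1.09% of all genes) and 0 higher, and 15 were lower at an unadjusted p under 0.05 (8.2% of all genes). Their median difference was -0.68, against -0.28 for untreated Ifnb-/- and -0.43 for Ifnb+/+ with rIFN-β. The median over the list in single arrays, relative to the mean of the 12 arrays, was 0.29 to 0.64 in untreated Ifnb+/+ and -0.27 to -0.12 in Ifnb-/- with rIFN-β. Csf1r, the receptor that microglia need to survive, read 8.24, 8.48 and 8.46 in untreated Ifnb+/+ against 7.24, 7.46 and 7.37 (-1.04 ± 0.14, adjusted p = 0.00206), and 8.11, 7.84 and 7.81 in untreated Ifnb-/-. Laptm5, a lysosomal membrane protein of leukocytes, read 8.16, 8.42 and 8.36 against 6.75, 7.05 and 7.07 (-1.36 ± 0.16, adjusted p = 0.00113). Treated knockout arrays were below every wild-type array in both. The other called markers were Cd68 (-1.12), a lysosomal glycoprotein of phagocytes, Cd53 (-1.14), a tetraspanin, C1qb (-0.86), of the first complement component, and Trem2 (-0.80), a lipid-sensing receptor. In the same order, untreated Ifnb-/- differed from untreated Ifnb+/+ by -0.77, -0.20, -0.89 and -1.03. Treated differed from untreated Ifnb-/- by -0.36, -0.93, 0.03 and 0.23, so that C1qb and Trem2 were no lower with rIFN-β than without it. Aif1, a cytoskeletal marker of microglia, differed by -1.09 (adjusted p = 0.0761), which is not a call. Of lower genes outside this list, Lcp1, an actin-bundling protein of leukocytes, differed by -1.62 ± 0.28 and Adgre1, which encodes the macrophage antigen F4/80, by -1.47 ± 0.32. In bulk RNA, fewer cells of a type and less RNA per cell cannot be told apart.

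The count of lower microglial markers was 3 without Ifnb-/- with rIFN-β replicate 1, 11 without untreated Ifnb+/+ replicate 1 and 10 without Ifnb+/+ with rIFN-β replicate 3. The calls of Csf1r, Laptm5 and Cd68 held with each array left out. The call of Trem2 was lost without Ifnb-/- with rIFN-β replicate 1 (adjusted p up to 0.0665), that of Lcp1 was lost without untreated Ifnb+/+ replicate 3 (adjusted p up to 0.0630) and that of C1qb was lost when untreated Ifnb+/+ replicate 3 and Ifnb-/- with rIFN-β replicates 1 and 2 were left out in turn (adjusted p up to 0.0928). The call of Cd53 held only when untreated Ifnb+/+ replicates 1 and 2 and Ifnb+/+ with rIFN-β replicates 1, 2 and 3 were left out in turn and was lost without each of the other 7 arrays (adjusted p up to 0.139), and that of Adgre1 held only when untreated Ifnb+/+ replicates 1 and 2 and Ifnb+/+ with rIFN-β replicates 1 and 3 were left out in turn and was lost without each of the other 8 arrays (adjusted p up to 0.148). The 4 other probe sets of Laptm5 differed by -0.77 to 0.13 and that of Cd53 by 0.11. Among markers of other non-neuronal cells limma called 0 of 17 astrocyte genes (7 at an unadjusted p under 0.05), 0 of 15 oligodendrocyte genes (2 so) and 0 of 21 endothelial, pericyte and fibroblast genes (4 so). At that p 17.6% of the astrocyte genes were higher and 23.5% lower. The shares were 6.67% and 6.67% for oligodendrocyte genes and 4.76% and 14.3% for the last list, against 7.1% and 8.2% of all genes. Of 11 markers of Purkinje cells and interneurons 0 were called, while 4 (36.4%, against 8.2% of all genes) were lower at an unadjusted p under 0.05. Their median difference was -0.57, against 0.25 in untreated Ifnb-/- and -0.52 in Ifnb+/+ with rIFN-β. That median was -0.25 without Ifnb-/- with rIFN-β replicate 2 and -0.32 without untreated Ifnb+/+ replicate 2.

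Of 58 measured genes for lysosomal hydrolases and membrane proteins 12 were lower (20.7%, against 1.09% of all genes) and 0 higher. Before adjustment 32 reached p under 0.05 in the lower direction (55.2%, against 8.2%), and the median was -0.39 against -0.28 in untreated Ifnb-/-. Outside the microglial list 10 of 55 were lower and the median was -0.39. The microglial markers moved with this list, and their part in the result was not tested further. Gusb, a glycosidase, read 7.86, 7.81 and 7.83 in untreated Ifnb+/+, 7.27, 7.28 and 7.30 in untreated Ifnb-/- and 6.28, 6.51 and 6.77 in Ifnb-/- with rIFN-β. The difference from wild type was -1.31 ± 0.14 (adjusted p = 0.000601), and the difference between treated and untreated Ifnb-/- was -0.76 (adjusted p = 0.0202). Ctsa, a protease that also protects other hydrolases, read 9.06, 9.13 and 9.07 in untreated Ifnb+/+ against 8.30, 8.23 and 8.29 (-0.81 ± 0.09, adjusted p = 0.000785). Ctsd, an aspartic protease of lysosomes, read 10.72, 10.57 and 10.58 against 9.76, 9.92 and 9.90 (-0.76 ± 0.10, adjusted p = 0.00238), and 9.94, 9.92 and 9.93 in untreated Ifnb-/-. Slc11a1, a divalent metal transporter of phagosomes that is not among the 58 genes, differed by -1.18 ± 0.14. As in all called genes, the arrays of these 4 did not overlap between the groups compared. In the list of lysosomal genes that the study drew up on these arrays, which is not independent evidence of direction, 12 of 72 were lower (16.7%) and 0 higher.

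**Figure D3:**
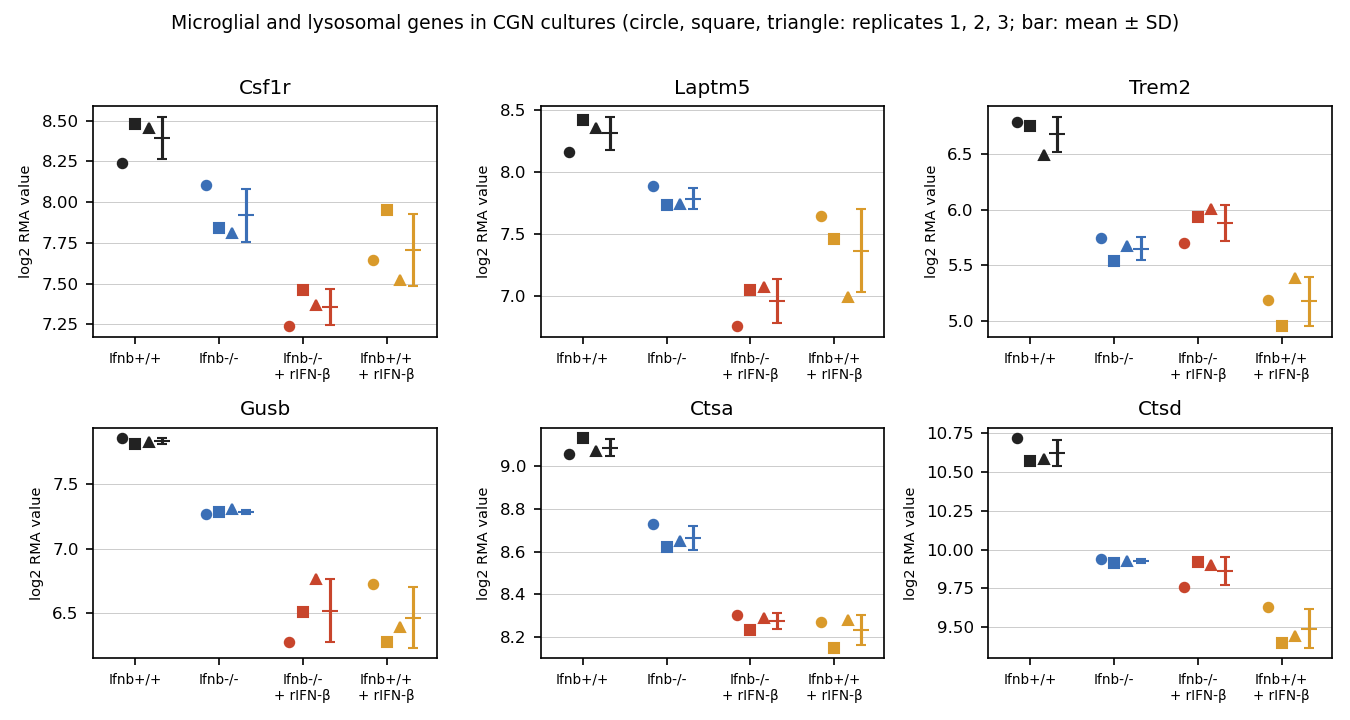
Log2 RMA values (vertical axis) of 3 microglial genes (Csf1r, Laptm5, Trem2) and 3 lysosomal genes (Gusb, Ctsa, Ctsd) in the 4 groups of 3 CGN cultures (circle, square and triangle for replicates 1, 2 and 3, bar for the mean ± SD). In all 6 genes the arrays of Ifnb-/- with rIFN-β lie below every array of untreated Ifnb+/+.

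Of 43 measured genes of the autophagy machinery 3 were lower (6.98%, against 1.09% of all genes) and 0 higher. Before adjustment 13 reached p under 0.05 in the lower direction (30.2%, against 8.2%), and the median was -0.19 against -0.03 in untreated Ifnb-/-. Pik3c3, the lipid kinase that helps start autophagosomes, read 7.05, 6.86 and 6.78 in untreated Ifnb+/+ and 6.10, 6.09 and 6.03 in Ifnb-/- with rIFN-β (-0.82 ± 0.10, adjusted p = 0.00168), against 6.74, 6.57 and 6.63 in untreated Ifnb-/-. The treated knockout arrays were below both untreated groups. Gabarapl1, an LC3 relative, differed by -0.57 and Atg13, of the initiating kinase complex, by -0.65. The autophagy receptor gene Sqstm1 differed by -0.47 (95% interval -0.74 to -0.21, adjusted p = 0.0737) and Map1lc3b, which encodes LC3, by -0.44 (-0.72 to -0.16, adjusted p = 0.123), which are not calls. The count of 3 was 9 without untreated Ifnb+/+ replicate 2, and 1 without its replicate 3 or without replicate 1 or 2 of Ifnb-/- with rIFN-β. The call of Gabarapl1 was lost when untreated Ifnb+/+ replicate 3 and Ifnb-/- with rIFN-β replicates 1 and 2 were left out in turn (adjusted p up to 0.113). That of Atg13 held only when untreated Ifnb+/+ replicate 2 and Ifnb+/+ with rIFN-β replicates 1, 2 and 3 were left out in turn and was lost without each of the other 8 arrays (adjusted p up to 0.131), and its 2 other probe sets differed by -0.50 and 0.10. Among the study's own autophagy list 2 of 19 genes were lower (10.5%) and 0 higher.

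Among 38 mTOR signaling genes 1 was higher (2.63%, against 0.77% of all genes) and 4 were lower (10.5%, against 1.09%), with a median of -0.03. Pik3ip1, an inhibitor of PI3 kinase, read 7.08, 7.59 and 7.21 in untreated Ifnb+/+, 7.59, 7.53 and 7.69 in untreated Ifnb-/- and 6.01, 5.33 and 5.79 in Ifnb-/- with rIFN-β. The difference from wild type was -1.58 ± 0.19 (adjusted p = 0.00136), and that between treated and untreated Ifnb-/- was -1.89 (adjusted p = 0.000334). Rragd, a GTPase that recruits mTORC1 to lysosomes, read 6.67, 7.26 and 7.11 in untreated Ifnb+/+ against 6.05, 6.19 and 6.09 (-0.90 ± 0.16, adjusted p = 0.0124), and Eif4b, a translation factor, differed by -0.59. For Rragd, untreated Ifnb-/- differed from untreated Ifnb+/+ by -0.81, and treated from untreated Ifnb-/- by -0.09. The call of Rragd was lost when untreated Ifnb+/+ replicate 3 and Ifnb-/- with rIFN-β replicate 1 were left out in turn (adjusted p up to 0.0767), and that of Eif4b was lost when untreated Ifnb+/+ replicate 3 and Ifnb-/- with rIFN-β replicate 1 were left out in turn (adjusted p up to 0.0709). The higher gene was Pik3r3, a regulatory subunit of PI3 kinase (0.47, adjusted p = 0.0325), which was also the 1 called gene of 17 in the study's mTOR list. Its call held only when untreated Ifnb+/+ replicates 1 and 2, Ifnb-/- with rIFN-β replicate 3, Ifnb+/+ with rIFN-β replicates 1, 2 and 3 were left out in turn and was lost without each of the other 6 arrays (adjusted p up to 0.139). The count of lower genes was 1 without untreated Ifnb+/+ replicate 3 and 2 without Ifnb-/- with rIFN-β replicate 1, and that of higher genes was 4 without untreated Ifnb+/+ replicate 2. Fbxo32, a ubiquitin ligase of muscle atrophy, read 4.20, 4.95 and 4.57 in untreated Ifnb+/+ against 3.12, 3.14 and 2.98 (-1.49 ± 0.25, adjusted p = 0.00948), and its call was lost without untreated Ifnb+/+ replicate 3 (adjusted p up to 0.0514).

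Of 21 measured cholesterol synthesis genes 9 were higher (42.9%, against 0.77% of all genes) and 0 lower. Before adjustment 14 reached p under 0.05 in the higher direction (66.7%, against 7.1%), and the median was 0.77 against 0.11 in untreated Ifnb-/- and 0.61 in Ifnb+/+ with rIFN-β. Idi1, an isomerase of the isoprenoid part of the pathway, read 7.71, 8.55 and 8.20 in untreated Ifnb+/+, 9.12, 9.31 and 9.22 in untreated Ifnb-/- and 10.63, 9.74 and 10.44 in Ifnb-/- with rIFN-β (2.12 ± 0.23, adjusted p = 0.000635). Hmgcs1, which makes HMG-CoA, read 10.13, 11.00 and 10.62 in untreated Ifnb+/+, 11.42, 11.47 and 11.50 in untreated Ifnb-/- and 12.21, 11.77 and 12.01 in Ifnb-/- with rIFN-β (1.41 ± 0.19, adjusted p = 0.00238). Hsd17b7, a reductase of the late pathway, read 6.58, 6.80 and 6.89, 6.96, 7.03 and 7.02 and 8.69, 8.07 and 8.70 in the same groups (1.73 ± 0.17, adjusted p = 0.000338). Untreated Ifnb-/- differed from untreated Ifnb+/+ by 1.07 in Idi1, 0.88 in Hmgcs1 and 0.25 in Hsd17b7. None of these differences was called (adjusted p 0.116 for Idi1, 0.115 for Hmgcs1 and 0.404 for Hsd17b7). Replicate 2 of the treated knockout, which had the highest astrocyte and cell cycle medians of its group, was the lowest of its group in all 3 genes. In replicates 1, 2 and 3 the list median was 0.83, -0.13 and 0.79 for the treated knockout, against -0.20, -0.54 and -0.37 for untreated Ifnb+/+. Without that replicate 13 genes were higher and the median difference was 1.07.

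The sterol response element, searched as TCACNCCAC and GTGGNGTGA after the cholesterol genes had been seen, lay in 1 of the 17 promoters of this list (5.88%) and in 208 of 14368 promoters of measured genes (1.45%). The interferon element lay in 1 of the 17 as well. The promoter with the sterol element was that of Hmgcs1, shown with the element in capitals, from RefSeq on GRCm38.p6, chr13:119690163-119690272 on the plus strand, where the match begins 137 bases before the start site.
Hmgcs1: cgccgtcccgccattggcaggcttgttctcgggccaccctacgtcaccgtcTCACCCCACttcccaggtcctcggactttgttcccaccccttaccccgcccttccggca

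**Figure D4:**
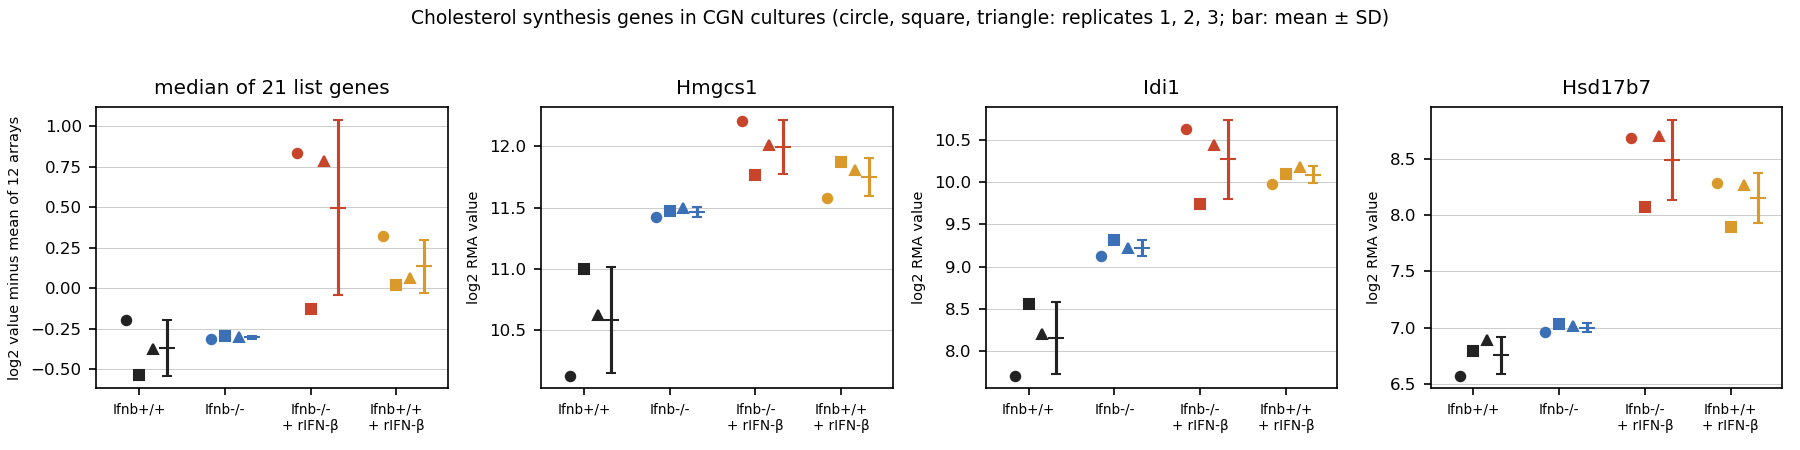
Median of the 21 cholesterol synthesis genes in each array (log2 value minus the mean of the 12 arrays) and log2 RMA values of Hmgcs1, Idi1 and Hsd17b7 in the 4 groups of 3 CGN cultures (circle, square and triangle for replicates 1, 2 and 3, bar for the mean ± SD). All treated knockout arrays lie above untreated Ifnb+/+, with replicate 2 the lowest of its group.

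Several stress and growth genes also differed. The metal-binding Mt2 read 9.38, 9.83 and 9.50 in untreated Ifnb+/+ and 10.63, 10.83 and 10.72 in Ifnb-/- with rIFN-β (1.16 ± 0.15, adjusted p = 0.00220), and its relative Mt1 differed by 0.64. Hmox1, which breaks down heme, differed by -0.95 in untreated Ifnb-/- and -0.82 with rIFN-β (95% interval -1.16 to -0.49). The call of Hmox1 was lost when untreated Ifnb+/+ replicate 3 and Ifnb-/- with rIFN-β replicates 1, 2 and 3 were left out in turn (adjusted p up to 0.0757), and that of Mt1 held only when untreated Ifnb+/+ replicate 2 and Ifnb+/+ with rIFN-β replicates 1 and 2 were left out in turn and was lost without each of the other 9 arrays (adjusted p up to 0.169). Cxcr4, the chemokine receptor that guides migrating granule cells, read 4.35, 4.35 and 4.18 in untreated Ifnb+/+ against 2.57, 3.48 and 2.20 (-1.55 ± 0.25, adjusted p = 0.00792). Cdkn1c, a cyclin-dependent kinase inhibitor, was the 1 called gene of 36 in the cell cycle list (2.78%, against 1.09% of all genes lower). It read 8.02, 8.86 and 8.52 in untreated Ifnb+/+, 7.41, 7.33 and 7.38 in untreated Ifnb-/- and 6.82, 7.37 and 7.04 in Ifnb-/- with rIFN-β (-1.39 ± 0.22, adjusted p = 0.00667).

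The study's neurodegeneration list, which was chosen on these arrays and is not independent evidence, had 1 higher and 3 lower of 116 measured genes. These are 0.862% and 2.59%, against 0.77% and 1.09% of all genes, so the higher share was near that of all genes. The higher gene was Tgm2, a transglutaminase. It read 4.02, 4.05 and 3.81 in untreated Ifnb+/+ against 6.26, 6.12 and 6.36 (2.29 ± 0.15, adjusted p = 1.1e-05), while its 5 other probe sets differed by -0.03 to 2.02. The lower genes were Ccl5, C1qb and Sncaip, an α-synuclein-binding protein, which read 6.02, 6.10 and 6.10 in untreated Ifnb+/+ against 5.49, 5.38 and 5.24 (-0.70 ± 0.12, adjusted p = 0.00873). The call of Sncaip was lost without untreated Ifnb+/+ replicate 3 (adjusted p up to 0.0558). The count of lower genes was 0 without untreated Ifnb+/+ replicate 3, 1 without Ifnb-/- with rIFN-β replicate 1, 7 without untreated Ifnb+/+ replicate 2, and 5 without replicate 1 or 3 of Ifnb+/+ with rIFN-β. The median of the list was -0.11, against -0.31 in untreated Ifnb-/-, and with single arrays left out it ran from -0.21 to 0.02.

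Lists for energy metabolism, protein turnover and the cell cycle had 0 or 1 called member each. The median difference of 34 complex I genes was 0.07 (untreated Ifnb-/- -0.22), of 37 genes of complexes II to V 0.00 (-0.21), of 32 proteasome genes -0.05 (-0.27) and of 36 cell cycle genes 0.02 (-0.37). Without Ifnb-/- with rIFN-β replicate 2 the medians of the complex I genes and of complexes II to V were 0.20 and 0.14, and that of the cell cycle genes was -0.23. Ndufa1, a complex I subunit, differed by 0.37 (95% interval 0.15 to 0.59, adjusted p = 0.0959). Limma called 0 genes of complexes II to V (5 at an unadjusted p under 0.05) and 0 proteasome genes (0 so). Those 5 were all higher, 13.5% of the list against 7.1% of all genes.

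Gabra6, the GABA-A receptor subunit that marks mature granule neurons, was the 1 called gene of 23 granule neuron markers (4.35%) and of 32 glutamate and GABA receptor subunits (3.12%), where 0.77% of all genes were called higher. The median differences of these lists were 0.14 and 0.13. It read 5.47, 5.45 and 5.48 in untreated Ifnb+/+ against 6.10, 6.11 and 6.33 in untreated Ifnb-/-. With rIFN-β it read 6.83, 6.29 and 6.75 in the knockout but 4.94, 5.61 and 5.01 in the wild type. The difference from untreated wild type was 1.16 ± 0.18 (adjusted p = 0.00671), and from treated wild type it was 1.44 (adjusted p = 0.0221). Treated knockout arrays were the highest of the 4 groups in mean. Grin2b, an NMDA receptor subunit, differed by 0.83 (95% interval 0.41 to 1.24, adjusted p = 0.0508) and Snap25, of the vesicle fusion complex, by 0.77 (0.33 to 1.21, adjusted p = 0.0838), which are not calls. Among 30 calcium and potassium channel genes 1 (3.33%) was lower, Kcnn2, a small-conductance potassium channel (-1.09 ± 0.22). Among 59 axon guidance genes Epha5, an Eph receptor, was higher (1.56 ± 0.35) and Rgma lower, 1.69% in each direction. Of all genes 0.77% were higher and 1.09% lower, so these shares rest on single genes and lie near that level. Epha5 read 4.63, 4.80 and 4.78 in untreated Ifnb+/+ against 6.53, 5.82 and 6.55, and 6.19, 6.40 and 6.31 in untreated Ifnb-/-. The call of Kcnn2 held only when untreated Ifnb+/+ replicates 1 and 2 and Ifnb+/+ with rIFN-β replicates 1, 2 and 3 were left out in turn and was lost without each of the other 7 arrays (adjusted p up to 0.116), and that of Epha5 held only when untreated Ifnb+/+ replicate 2, Ifnb-/- with rIFN-β replicate 2, Ifnb+/+ with rIFN-β replicates 1, 2 and 3 were left out in turn and was lost without each of the other 7 arrays (adjusted p up to 0.163). Limma called 0 of 14 familial Parkinson's disease genes (2 at an unadjusted p under 0.05) and 0 of 25 dopaminergic synapse genes (4 so). At that p 7.14% of the Parkinson's disease genes were higher and 7.14% lower, and 4% and 12% of the dopaminergic genes. Over all genes these shares were 7.1% and 8.2%. Pink1, a mitochondrial kinase of the first of these lists, differed by -0.74 (95% interval -1.18 to -0.29, adjusted p = 0.0995).

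**Figure D5:**
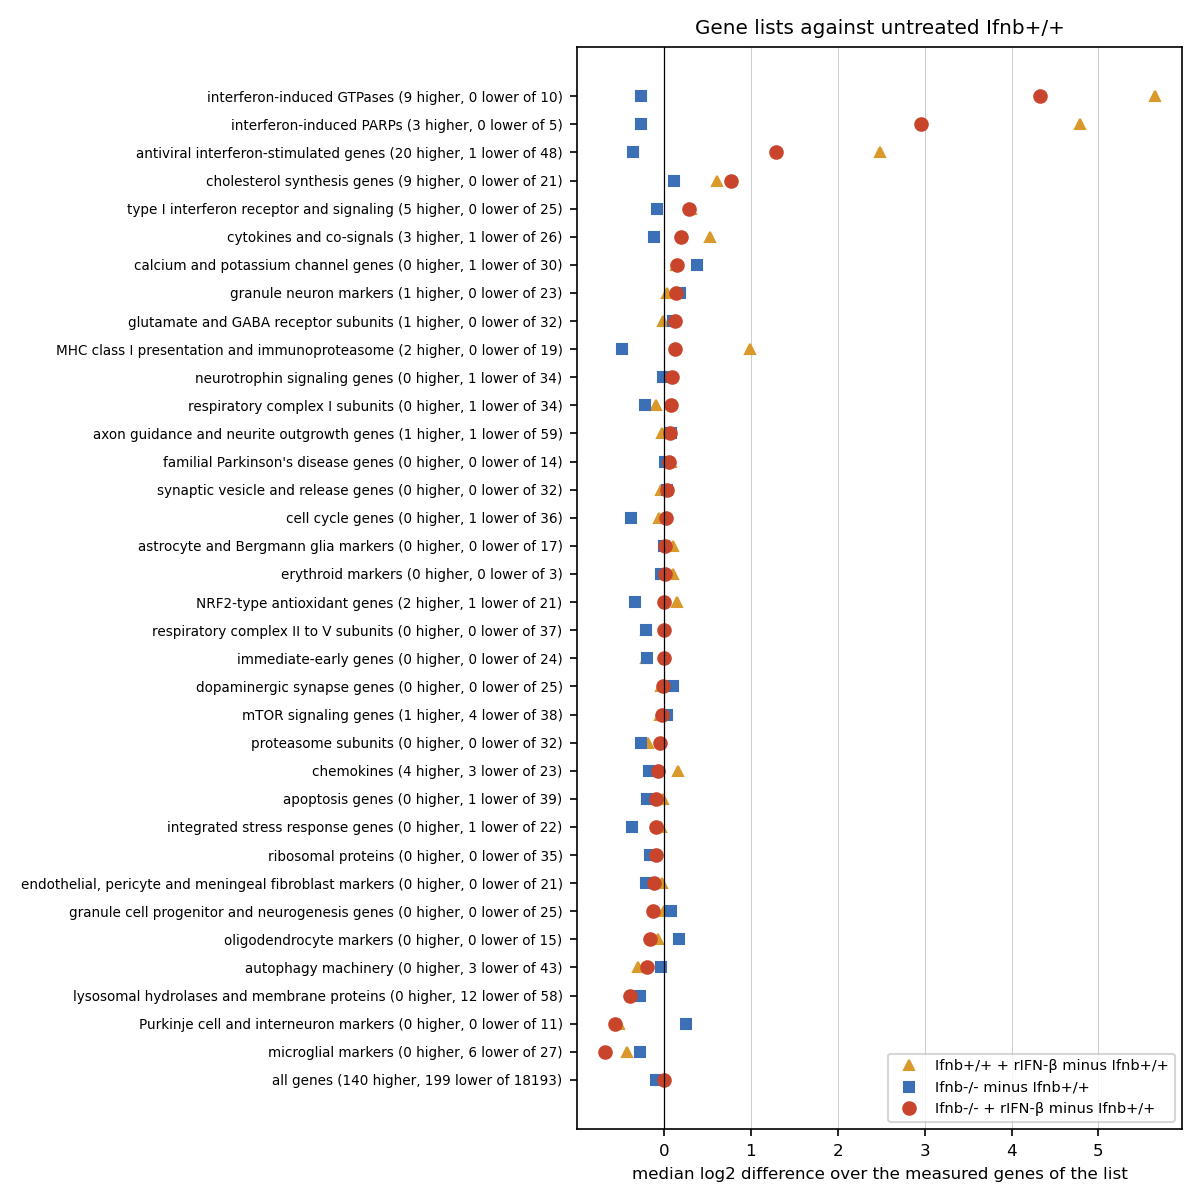
Median log2 difference from untreated Ifnb+/+ (horizontal axis) over the measured genes of each list, for Ifnb-/- with rIFN-β (circles), untreated Ifnb-/- (squares) and Ifnb+/+ with rIFN-β (triangles), all against the same 3 arrays, with the called genes of the first comparison in the labels. The GTPases reach 4.33 and the cholesterol genes 0.77 in Ifnb-/- with rIFN-β, and the microglial markers lie at -0.68.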

How the data were processed

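Expression was read from 12 arrays of CGN RNA, with 3 arrays for each of the 4 groups. The authors quantile-normalized the scans and summarized them by RMA in Arraystar, and deposited log2 values for 45037 probe sets. Array medians ran from 4.33 to 4.42, and 3 arrays a group limit the precision. Groups came from the sample labels. A model of 4 group means over the 12 arrays (8 residual degrees of freedom) was fitted with limma 3.58.1 in R 4.3.3 and tested on simulated data. A gene was called at a Benjamini-Hochberg adjusted p under 0.05 over 18193 genes. The rule for named genes took the 12 largest differences per direction, up to 3 members of each list by adjusted p, the genes called between untreated genotypes and genes the study discusses, and not all of these are named. Named outside it were Aif1, Ccl2, Ccl5, Ccl7, Cd53, Cxcl3, Gm4951, Mmp13, Neurod1, Tent5a, Tgfb1 and Zic1. The comparison, its genes and the 35 lists were chosen with earlier results of these data known, and 4 more lists are the study's. Of 1082 list entries 964 were measured. Alternatives changed the probe sets, the filter, the scaling, the fit, the test and the arrays included. Promoter sequences came from RefSeq.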

Additional observations from a re-analysis of the deposited data

Results flagged for a closer look

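For 4 genes the difference between treated and untreated cultures was not the same in the 2 genotypes (interaction term of the limma fit, Benjamini-Hochberg adjusted over all genes). Adam8 differed by -0.29 between treated and untreated Ifnb-/- and by -2.03 between treated and untreated Ifnb+/+, an interaction of 1.74 ± 0.197 (SE, adjusted p = 0.0120). Trem2 differed by 0.23 and -1.50, an interaction of 1.73 ± 0.196 (adjusted p = 0.0120). For Slc37a2 the differences were 0.09 and -1.15 and the interaction 1.24 ± 0.170 (adjusted p = 0.0414). For Ctsd they were -0.06 and -1.13 and the interaction 1.07 ± 0.145 (adjusted p = 0.0414). All 4 were also called between the untreated genotypes. That comparison uses the same untreated arrays as the interaction term, so this overlap is partly built in and is not independent evidence.

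Probe sets outside the gene table carried signal too. With every deposited probe set in 1 fit, 7 of the 932 that name several genes were higher and 13 lower in Ifnb-/- with rIFN-β than in untreated Ifnb+/+. Of the 9160 that name no gene 38 were higher and 24 lower. Among the 34945 that name 1 gene 199 were higher and 332 lower.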

How the results depend on the processing

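The counts of called genes, 140 higher and 199 lower, changed widely with the arrays, weights, test and threshold used. With each array left out in turn they ran from 64 to 543 and from 65 to 576. They were 87 and 58 with only the 6 compared arrays in the fit, 67 and 66 at an adjusted p under 0.01, 226 and 386 with every probe set on its own, and 508 and 434 with limma at an unadjusted p under 0.05 and 1.5-fold. The methods' t-test at p under 0.05 and 1.5-fold gave 261 and 295, at any fold 837 and 924 (an alternative added after seeing the data), and after Benjamini-Hochberg adjustment 0 and 0. Gene-by-gene array weights, also added after seeing the data, gave 1879 and 1985. The planned array weights gave untreated Ifnb+/+ replicate 3 a weight of 5736 and the other 11 arrays 0.0986 to 1.66, and the fit with them was not run. The replicate block gave 185 and 215. Deviations of same-numbered arrays correlated at 0.097, 0.316 and -0.168, so the numbers were not taken to pair the cultures. Among genes with a mean of at least 5 the median correlation with untreated Ifnb+/+ was 0.932 for Ifnb-/- with rIFN-β and 0.971 for untreated Ifnb-/-. Averaging all probe sets of a gene reversed 2 signs: Fcgr1 then differed by 0.0752 and Ifnar2 by 0.105, against -0.26 and -0.06. Of 78 named genes that were called, 51 were called with every array left out in turn. Differences near the lower end of the scale are limited by array background.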
